A study of Mus musculus with 69 samples.

Results

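The genes described here are Il6, Osm, Lif, Osmr, Il6ra, Il6st, Socs3 and Stat3, the ligands, receptors, transducer and feedback inhibitor of IL-6 family and STAT3 signalling. They were chosen by symbol, and each was read from the array probes whose transcript accession maps to that symbol. The members, and the gene lists used below, were chosen with earlier results of these data known. Their counts beside the share of all genes are therefore a description and no independent test. Of the 8 genes, 7 had a matched probe and were measured among 17639 genes in all. Lif had no matched probe and is not analysed here.

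Lung RNA was profiled from 69 female C57BL/6 mice, 1 mouse per array, after a single instillation into the trachea of titanium dioxide particles or of the vehicle alone. The mice were 5 to 7 weeks old when bought and were acclimatised for 1 to 3 weeks. The unmodified, uncharged particle was NRCWE-001, and NRCWE-002 was its surface-modified, positively charged counterpart. Each was given at 18, 54 or 162 µg. The vehicle, labelled H2O, was water with 2% serum, which every exposed mouse received too. Lungs were taken on day 1 (24 h) or on day 28. Each group held 5 mice, except the vehicle group of day 28, which held 4. Every level below is the log2 of lung signal over the signal of a common mouse reference RNA, so only differences between groups carry a comparison. A gene was called at a Benjamini-Hochberg adjusted p below 0.05 over all 17639 genes in limma.

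Cytokines of the IL-6 family signal through receptors that share the transducer gp130, the product of Il6st. IL-6 binds its own receptor (Il6ra) and oncostatin M (Osm) binds its receptor (Osmr), and each complex then engages gp130. The attached JAK kinases phosphorylate STAT3, which induces its target genes, among them Socs3, whose product binds gp130 and damps the signal. In the lung, IL-6 family cytokines are known to induce acute-phase proteins such as the serum amyloid A proteins, which include Saa3.

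Reference promoters are shown for the 3 members with the largest difference from the vehicle at 162 µg on day 1, because a STAT dimer binds palindromes of the form TTCNNNGAA. The windows are from RefSeq (GRCm38.p6), run 5′ to 3′ from 250 bases before to 50 bases after the start of the gene, and were read on the strand of the gene. Capitals mark TTCNNNGAA or the NF-kB form, in which GGG and CC are separated by 5 bases of any kind, searched on both strands, and overlapping matches run together. The Socs3 window lies at chr11:117969317-117969616 on the minus strand, the Il6 window at chr5:30012864-30013163 on the plus strand and the Osmr window at chr15:6874264-6874563 on the minus strand.
Socs3: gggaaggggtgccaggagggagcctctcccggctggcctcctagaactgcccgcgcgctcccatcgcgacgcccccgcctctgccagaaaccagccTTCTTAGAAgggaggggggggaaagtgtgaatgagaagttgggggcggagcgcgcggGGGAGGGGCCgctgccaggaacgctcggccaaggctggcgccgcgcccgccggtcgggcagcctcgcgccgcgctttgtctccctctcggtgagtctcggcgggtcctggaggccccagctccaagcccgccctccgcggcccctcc
Il6: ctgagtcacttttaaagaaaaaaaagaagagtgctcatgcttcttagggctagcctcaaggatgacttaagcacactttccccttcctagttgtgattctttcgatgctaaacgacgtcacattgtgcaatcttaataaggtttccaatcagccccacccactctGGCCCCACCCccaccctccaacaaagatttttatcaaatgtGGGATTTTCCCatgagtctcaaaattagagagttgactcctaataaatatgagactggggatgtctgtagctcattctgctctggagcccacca
Osmr: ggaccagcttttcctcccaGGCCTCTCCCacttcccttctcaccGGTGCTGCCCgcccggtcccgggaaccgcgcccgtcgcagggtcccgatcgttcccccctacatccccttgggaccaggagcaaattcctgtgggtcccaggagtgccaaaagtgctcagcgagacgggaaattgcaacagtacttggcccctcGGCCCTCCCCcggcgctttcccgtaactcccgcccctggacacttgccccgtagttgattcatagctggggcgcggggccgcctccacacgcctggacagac

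The Socs3 window held 1 match to TTCNNNGAA, from -154 to -146 relative to the start of the gene, and 1 match to the NF-kB form. The Il6 window held 3 matches to the NF-kB form, of which 2 overlap, and the Osmr window held 3. The windows of Il6, Osmr, Il6ra, Il6st, Lif, Stat3 and Saa3 held 0 matches to TTCNNNGAA. Among all 32851 windows of this length, 8.3% held TTCNNNGAA and 50.8% held the NF-kB form. A match is a string of letters and was not tested as a binding site.

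Some arrays stood apart from the rest. On day 1, Saa3 lay at or below the vehicle level in 3 mice labelled as exposed to 54 or 162 µg of NRCWE-001, namely replicate 5 at 162 µg (-3.74) and replicates 4 and 5 at 54 µg (-3.78 and -4.16), while the vehicle mice ran from -3.95 to -3.19. At 18 µg, 1 mouse of each particle (-3.62 in both) lay in that range too. The means at 54 µg of NRCWE-001 thus include 2 such mice, whose Socs3 was -0.88 and -0.79 beside -0.38, -0.40 and -0.37 in the other 3. On day 28, the 7 arrays of 2 of the 18 slides stood apart. Il6st ran from 1.55 to 2.21 on them and from 0.83 to 1.37 on the other 27 arrays of that day, and Il6ra ran from 0.51 to 0.96 against -0.43 to 0.55. These slides held the vehicle replicate 2, the replicate 1 of each NRCWE-001 dose and the replicate 2 of each NRCWE-002 dose. Red-channel spots well above background made up 61.4% to 87.8% of an array, and the lung marker genes of alveolar, club, ciliated and endothelial cells were all above background on 69 of 69 arrays. The arrays hold whole lung, in which fewer cells of a type and less RNA per cell cannot be told apart. The labels do not describe the replicates further than as separate mice. The arrays came from 18 slides and 12 scan days, neither of which is in the main fit. Its p-values thus measure the spread between mice, slides and scan days together.

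Socs3, the feedback inhibitor, was the only member called at a single dose on day 1, and only for NRCWE-001. In vehicle lungs its log2 ratio was -0.62, -0.69, -0.62, -0.80 and -0.77. At 162 µg of NRCWE-001 it was -0.18, -0.40, 0.25, 0.48 and -0.31, and every exposed mouse lay above every vehicle mouse. It rose by 0.67 ± 0.15 (SE) on the log2 scale, a 1.59-fold increase (limma, adjusted p = 0.0136). That made 1 of 7 measured members called higher, where 0.454% of all genes were and 0.624% were called in either direction. With an unadjusted p below 0.05 there were 3 of 7 members (Socs3, Il6 and Osmr), beside 7.32% of all genes. The median log2 fold change was 0.14 over the 7 members and -0.0009 over all genes.

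For NRCWE-002 the Socs3 difference missed the threshold, and 0 of 7 members were called where 0.59% of all genes were. At 162 µg the mice had Socs3 log2 ratios of -0.38, -0.01, -0.14, 0.51 and -0.61, again with no overlap with the vehicle. The log2 fold change was 0.57 ± 0.15 (SE), 1.49-fold, with an adjusted p of 0.05001 in limma. Over 12 alternatives in the processing it ran from 0.42 to 0.64 and was past the threshold in 9. For NRCWE-001 the Socs3 difference was past it in 12 of 12. In the main fit, Socs3 with Il6, Osmr and Osm made 4 of 7 members with an unadjusted p below 0.05, beside 9.35% of all genes. At 54 µg all 5 NRCWE-002 mice, from -0.46 to -0.02, also lay above the vehicle range. The difference there was 0.43 ± 0.15 (limma, adjusted p = 0.451), and 0.113% of all genes were called. At 18 µg of either particle and at 54 µg of NRCWE-001, 0% of all genes were called. Mean Socs3 at 18 µg was -0.74 (NRCWE-001) and -0.61 (NRCWE-002), beside a vehicle mean of -0.70.

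Ordered by mean on day 1, Socs3 ran from NRCWE-001 at 18 µg through the vehicle, NRCWE-002 at 18 µg, NRCWE-001 at 54 µg, NRCWE-002 at 54 µg and NRCWE-002 at 162 µg to NRCWE-001 at 162 µg. Neighbours in that order differed by less than the larger of their SDs, except the groups at 54 µg, NRCWE-001 at -0.56 ± 0.25 and NRCWE-002 at -0.27 ± 0.17, and, narrowly, the vehicle at -0.70 ± 0.08 and NRCWE-002 at 18 µg at -0.61 ± 0.05 (SD, n = 5 each). An F-test over the 3 doses called Socs3 for NRCWE-001 (limma, adjusted p = 0.0104) and not for NRCWE-002 (adjusted p = 0.0573). Of all genes, 0.879% and 0.771% were called by these F-tests.

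**Figure D1:**
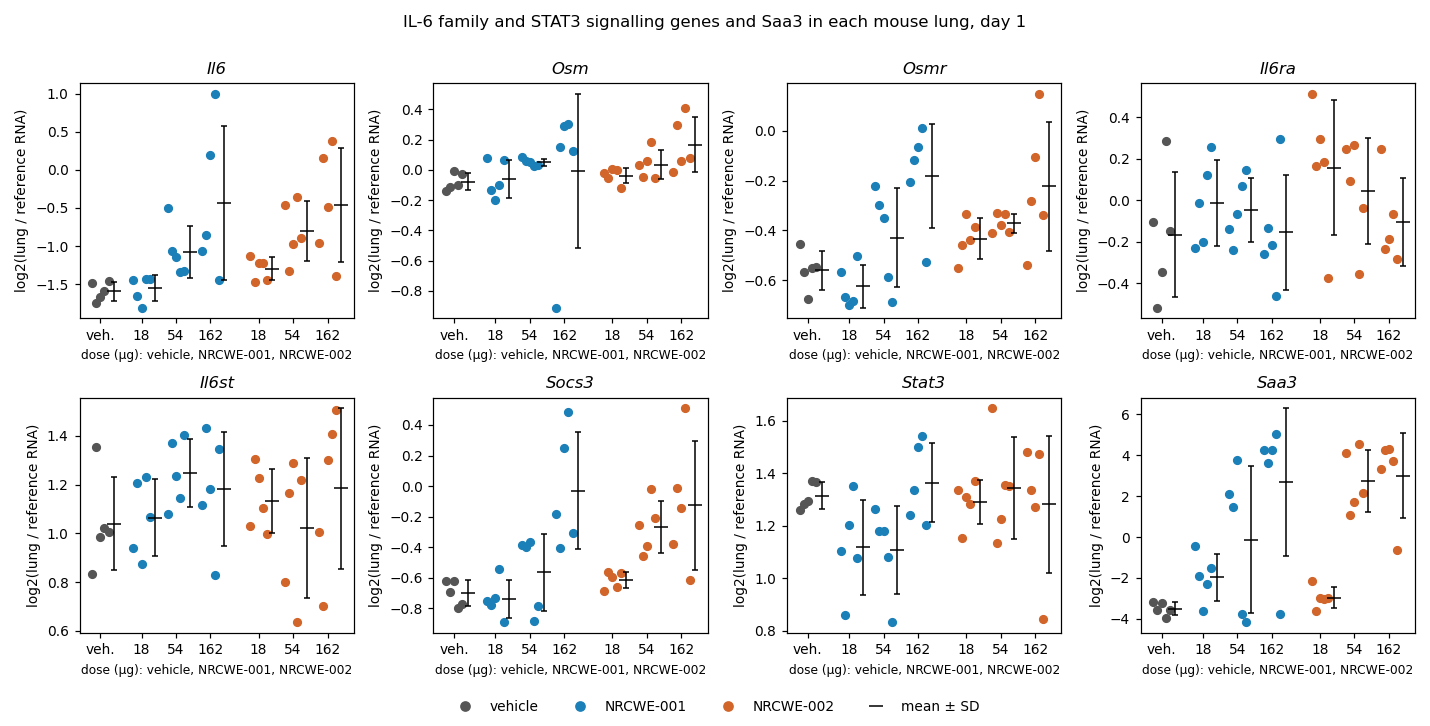
Log2 ratio of lung to reference RNA for the 7 measured members and Saa3 on day 1, by dose in µg, with 1 point per mouse and the group mean ± SD beside the points (5 mice per group). Socs3 and Il6 at 162 µg lie above all vehicle points for both particles, while Il6ra, Il6st and Stat3 overlap the vehicle throughout.

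Il6, the cytokine itself, showed the widest differences of the family and the widest spread. Vehicle lungs had Il6 log2 ratios of -1.48, -1.75, -1.67, -1.59 and -1.46 on day 1. The mice at 162 µg of NRCWE-001 had -1.06, -0.85, 0.19, 1.00 and -1.45. Those at 162 µg of NRCWE-002 had -0.96, 0.15, -0.49, 0.38 and -1.40. All 10 lay above the vehicle range, but replicate 5 of each group lay just above it. The log2 fold change was 1.16 ± 0.33 with the unmodified particle (2.23-fold, limma, adjusted p = 0.101) and 1.13 ± 0.33 with the charged one (2.19-fold, adjusted p = 0.113), and neither was called. These sizes depended on the processing, and over 12 alternatives the log2 fold change ran from 1.05 to 3.92 and from 0.73 to 3.94, past the threshold in 6 and 3 of them, with the highest values from the scanner's processed signals.

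At 54 µg on day 1, all mice were again above the vehicle range in Il6, from -1.34 to -0.51 for NRCWE-001 and from -1.33 to -0.36 for NRCWE-002. The share of all genes whose exposed mice all lay above all vehicle mice was 2.31% and 1.7% at 54 and 162 µg of NRCWE-001, and 1.8% and 3% at 54 and 162 µg of NRCWE-002. Ordered by mean, Il6 ran from the vehicle (-1.59 ± 0.12) through 18 µg of NRCWE-001 (-1.55 ± 0.17), 18 µg of NRCWE-002 (-1.30 ± 0.15), 54 µg of NRCWE-001 (-1.08 ± 0.34) and 54 µg of NRCWE-002 (-0.80 ± 0.40) to 162 µg of NRCWE-002 (-0.46 ± 0.75) and of NRCWE-001 (-0.43 ± 1.01; SD, n = 5 each). Only the groups at 18 µg were neighbours that differed by more than the larger SD. The Il6 probe was near background, being well above it on 48 of 69 arrays and in 1 of the 5 vehicle mice of day 1.

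Osmr, the receptor chain for oncostatin M, followed the dose of NRCWE-001 on day 1 by the F-test (limma, adjusted p = 0.0380), a call kept in 8 of 20 fits that left out 1 mouse each (adjusted p up to 0.257). Vehicle lungs had Osmr log2 ratios of -0.46, -0.56, -0.68, -0.55 and -0.55. At 162 µg of NRCWE-001 they were -0.21, -0.12, -0.06, 0.01 and -0.53, so 4 mice lay above the vehicle range and replicate 5 within it. The difference at that dose was 0.38 ± 0.10, 1.30-fold (limma, adjusted p = 0.0639). For NRCWE-002 at 162 µg the values were -0.54, -0.28, -0.11, 0.15 and -0.34, and the difference was 0.34 ± 0.10 (adjusted p = 0.128). Both Osmr probes were well above background on every array, and they differed from the vehicle by 0.48 and 0.27 at 162 µg of NRCWE-001. By mean, 18 µg of NRCWE-001 (-0.62) was lowest and 162 µg of NRCWE-001 (-0.18) highest, and only the vehicle and 18 µg of NRCWE-002 were neighbours further apart than the larger SD.

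Osm, the ligand of that receptor, was measured by 2 probes that disagreed. The probe well above background on 69 of 69 arrays read 0.37, 0.29, 0.44, 0.59 and 0.24 at 162 µg of NRCWE-001 on day 1, beside -0.01, -0.11, -0.10, -0.10 and 0.04 in the vehicle. All exposed mice thus lay above the vehicle on this probe. At 162 µg of NRCWE-002 it read 0.13, 0.61, 0.17, 0.77 and 0.09, again with no overlap. The share of all probes without such an overlap was not counted. The differences from the vehicle were 0.44 ± 0.12 (NRCWE-001) and 0.41 ± 0.12 (NRCWE-002) in a fit over probes (limma, adjusted p = 0.101 and 0.140). The other probe was well above background on 12 of 69 arrays and read -2.19 in replicate 1 at 162 µg of NRCWE-001. The median over both probes overlapped the vehicle for both particles. It differed from the vehicle by 0.07 ± 0.12 and 0.25 ± 0.12 (limma, adjusted p = 1.00 and 0.503).

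The IL-6 receptor chain, the shared transducer and Stat3 itself overlapped the vehicle on day 1. Stat3 was 1.26, 1.28, 1.30, 1.37 and 1.37 in the vehicle mice, 1.24, 1.34, 1.50, 1.54 and 1.20 at 162 µg of NRCWE-001 and 1.48, 1.34, 1.27, 1.48 and 0.85 at 162 µg of NRCWE-002. At 162 µg the Il6ra log2 fold changes were 0.01 ± 0.22 (NRCWE-001) and 0.06 ± 0.22 (NRCWE-002). For Il6st it was 0.14 ± 0.19 for both particles, with 95% intervals from -0.24 to 0.52 and from -0.24 to 0.53. For Stat3 it was 0.05 ± 0.15 and -0.03 ± 0.15, with intervals from -0.25 to 0.35 and from -0.33 to 0.26. All 3 genes had adjusted p-values of 0.948 or more in limma.

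**Figure D2:**
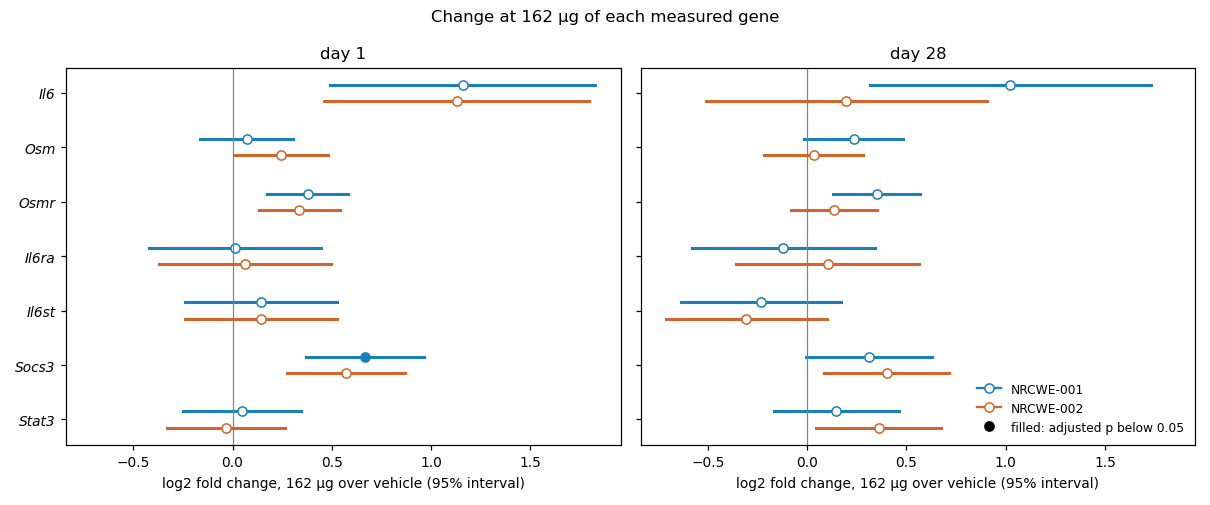
Log2 fold change at 162 µg against the vehicle of the same day with its 95% interval from limma, for each measured member, particle and day. Only Socs3 for NRCWE-001 on day 1, at 0.67, is filled as past the adjusted threshold, and Il6 has the widest intervals.

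The Socs3 call rested on a small number of mice. It was lost without NRCWE-001 replicate 3 (0.60, adjusted p = 0.118) or replicate 4 (0.54, adjusted p = 0.197) or without vehicle replicate 4 (0.64, adjusted p = 0.0512). Without replicate 5, the mouse whose Saa3 was at the vehicle level, Socs3 (0.74, adjusted p = 0.00314), Il6 (1.41, adjusted p = 0.0116) and Osmr (0.47, adjusted p = 0.00503) were all called in limma. For NRCWE-002 at 162 µg, leaving out replicate 5 likewise gave called values for Socs3 (0.69, adjusted p = 0.00756) and Il6 (1.36, adjusted p = 0.0247). The share of all genes called was not counted in these fits. The added calls can therefore not be read as particular to these members.

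Slides held several groups, so the slide was also fitted as a block. Within slides, Socs3 was higher than the vehicle of the same slide on 3 of 3 slides at 162 µg of NRCWE-001 (by 0.29 to 0.87) and on 2 of 2 at 162 µg of NRCWE-002 (by 0.42 to 0.63). Il6 was higher on 3 of 3 (by 0.42 to 1.87) and 2 of 2 (by 0.63 to 0.97), and Osmr on 3 of 3 (by 0.25 to 0.61) and 2 of 2 (by 0.01 to 0.44). With the slide as a fixed block, the NRCWE-001 differences were 0.64 for Socs3, 1.18 for Il6 and 0.39 for Osmr, all called (limma, adjusted p = 0.00621, 0.0195 and 0.00945), where 4.11% of all genes were called in that fit. The NRCWE-002 differences were 0.42, 0.73 and 0.29, and none was called (adjusted p = 0.185, 0.337 and 0.154).

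No difference between the particles was detected for any member on day 1. At 162 µg, NRCWE-002 minus NRCWE-001 was -0.10 for Socs3 (95% interval -0.39 to 0.20), -0.03 for Il6 (-0.70 to 0.64) and -0.04 for Osmr (-0.25 to 0.16). Averaged over the doses the differences were 0.11 (-0.06 to 0.28), 0.17 (-0.22 to 0.55) and 0.07 (-0.05 to 0.19). None of the 7 members was called by limma in either contrast (0 of 7 also had an unadjusted p below 0.05), where 0% and 0.108% of all genes were called.

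On day 28 no member was called by limma at any dose of either particle, where 0.193%, 0.00567% and 0.051% of all genes were called at 18, 54 and 162 µg of NRCWE-001, and 0%, 0% and 0.00567% at those doses of NRCWE-002. The F-tests over the doses called 0 of 7 members too, beside 0.686% and 0% of all genes. Il6 at 162 µg of NRCWE-001 was -0.96, -1.12, -1.32, -0.06 and 0.19, all above the vehicle values of -2.00, -1.74, -1.54 and -1.43. Its log2 fold change was 1.02 ± 0.35 (limma, adjusted p = 0.366) and ran from 0.84 to 2.97 over the 12 alternatives. The Il6 probe was well above background in 2 of the 4 vehicle mice. Of all genes, 0.85% had all exposed mice above the vehicle in this comparison. Osmr at that dose was -0.31, -0.34, -0.36, -0.10 and 0.03 beside -0.63, -0.69, -0.36 and -0.58 in the vehicle, a difference of 0.35 ± 0.11 (limma, adjusted p = 0.269). Il6 and Osmr were thus 2 of 7 members with an unadjusted p below 0.05, which 7.34% of all genes had. Without the slides that stood apart the differences were 1.08 and 0.33 (limma, adjusted p = 0.334 and 0.374). Il6 at 162 µg of NRCWE-002 was -1.78, -2.60, -1.41, -0.93 and -0.69, on both sides of the vehicle range. That difference was 0.20 ± 0.35 (limma, adjusted p = 0.945), and 0.46 without those slides.

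Socs3 on day 28 was -0.64, -0.71, -0.55, -0.21 and 0.25 at 162 µg of NRCWE-001 and -0.54, -0.07, -0.61, -0.11 and -0.08 at 162 µg of NRCWE-002. The vehicle mice read -0.66, -0.96, -0.55 and -0.56, so the groups overlapped. The differences were 0.31 ± 0.16 and 0.40 ± 0.16 (limma, adjusted p = 0.698 and 0.569), and 0.29 and 0.25 without the slides that stood apart. Across the day 28 groups, neighbours in the order of mean Socs3 differed by less than the larger SD, and so did those of Il6.

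Osm on its well measured probe read 0.78, 0.17, 0.08, 0.53 and 1.00 at 162 µg of NRCWE-001 on day 28, against -0.22, 0.54, -0.01 and -0.07 in the vehicle. The difference was 0.45 ± 0.13 (limma over probes, adjusted p = 0.297). The vehicle mouse at 0.54 was on 1 of the slides that stood apart.

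Stat3 differed by 0.36 ± 0.16 at 162 µg of NRCWE-002 on day 28 (limma, adjusted p = 0.621), and with Socs3 it made 2 of 7 members with an unadjusted p below 0.05, beside 7.27% of all genes. The NRCWE-002 mice on 1 of the slides that stood apart read 1.93, 1.74 and 2.13 at 18, 54 and 162 µg, and 1 other mouse of that day, replicate 4 at 162 µg (1.79), lay in that range. Without those slides the difference was 0.15 (adjusted p = 1.00). Il6st differed from the vehicle by -0.23 ± 0.20 and -0.31 ± 0.20 at 162 µg of the particles (adjusted p = 0.923 and 0.787), and by -0.16 for each without those slides. Heart muscle markers had a median change of 1.82 at 162 µg of NRCWE-002 on day 28, with 0 of 4 called, and their part in these values was not tested.

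**Figure D3:**
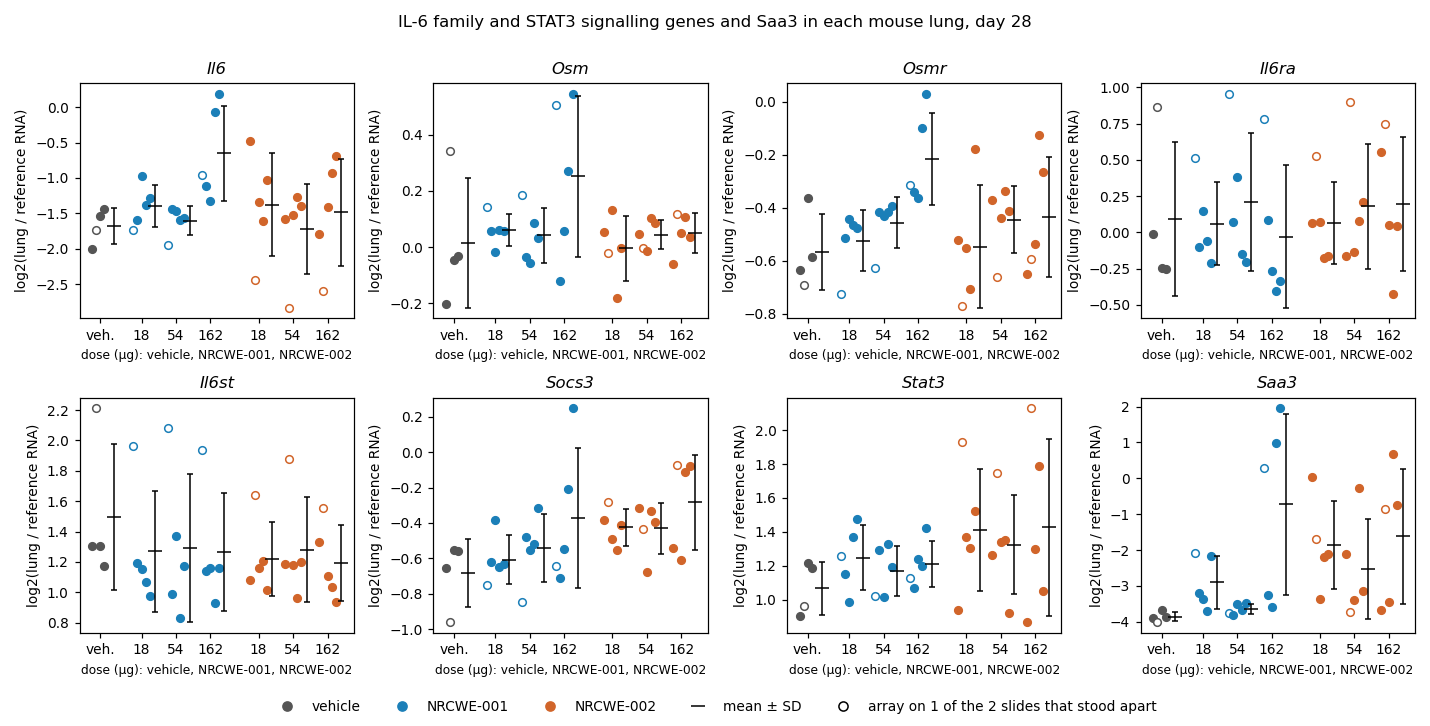
Log2 ratio of lung to reference RNA for the 7 measured members and Saa3 on day 28, drawn as for day 1, with open points for the 7 arrays on the slides that stood apart. Il6 at 162 µg of NRCWE-001 lies above all 4 vehicle mice, and the open points lead Il6ra and Il6st in most groups.

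The change at 162 µg was also compared between the days. For NRCWE-001 the day 28 effect minus the day 1 effect was -0.36 for Socs3 (95% interval -0.79 to 0.08), -0.14 for Il6 (-1.11 to 0.84) and -0.03 for Osmr (-0.33 to 0.27). For NRCWE-002 it was -0.17 (-0.61 to 0.26), -0.93 (-1.91 to 0.04) and -0.20 (-0.50 to 0.10). No member was called in limma, 0% of all genes were, and 0 of 7 members had an unadjusted p below 0.05. Between the particles at 162 µg on day 28, Il6 (-0.83, interval -1.50 to -0.16) and Osmr (-0.22, -0.42 to -0.01) had intervals below 0 for NRCWE-002 minus NRCWE-001, and neither was called (limma, adjusted p = 0.482 and 0.541), nor was any other gene. Averaged over doses on day 28, 0 of 7 members were called where 6.73% of all genes were.

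Saa3, an acute-phase protein gene, was set beside each member mouse by mouse. Saa3 itself changed by 6.17 ± 1.16 at 162 µg of NRCWE-001 and by 6.49 ± 1.16 at 162 µg of NRCWE-002 on day 1 (limma, adjusted p = 0.00238 and 0.00169). To remove the labelled dose, each of the 30 exposed mice of a day was expressed as its deviation from the mean of its own group, and members were permuted within groups 100000 times. This does not remove the contrast between mice with Saa3 at the vehicle level and the others of their group. This gave 14 relations, adjusted together, and the deviations of Saa3 did not fall into separate clusters on either day. Mice of a day share slides, so r is also given with the slide removed.

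On day 1, Socs3, Il6, Osmr and Stat3 were higher in mice with more Saa3 than their group. Pearson's r was 0.60 for Socs3 (permutation p = 0.00834, adjusted 0.0234; Spearman's rho 0.58, p = 0.00358), 0.63 for Il6 (p = 0.00248, adjusted 0.0174; rho 0.62, p = 0.00063), 0.66 for Osmr (p = 0.00513, adjusted 0.0227; rho 0.63, p = 0.00241) and 0.58 for Stat3 (p = 0.00133, adjusted 0.0174; rho 0.49, p = 0.0087). Among all genes, 3.49%, 2.83%, 2.31% and 3.98% had an r with Saa3 at least this high. Without the 2 mice farthest in Saa3, r was 0.58 for Socs3, 0.54 for Il6, 0.50 for Stat3 and 0.42 for Osmr, the last with a permutation p of 0.131. Socs3 and Il6 stayed past the adjusted threshold then, and Stat3 (permutation, adjusted p = 0.0518) and Osmr (0.183) did not. The Osmr relation was thus weaker without those 2 mice, replicate 5 at 54 µg and replicate 5 at 162 µg of NRCWE-001. It kept its call in 29 of 30 fits that left out 1 mouse each. Replicate 4 at 54 µg of NRCWE-001, whose Saa3 was also at the vehicle level (-3.78), stayed in. The r values without the 2 mice therefore still hold its contrast with the rest of its group. With the slide removed as well as the group, r was 0.60 for Socs3, 0.67 for Il6, 0.85 for Osmr and 0.43 for Stat3, the last no longer past the threshold (permutation, adjusted p = 0.0618).

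Il6st and Il6ra went the other way on day 1. Pearson's r with Saa3 was -0.42 for Il6st (permutation p = 0.0272, adjusted 0.0476; rho -0.49, p = 0.00614) and -0.39 for Il6ra (p = 0.0374, adjusted 0.0524; rho -0.43, p = 0.0213). As many as 9.38% and 12.1% of all genes had an r at least this low. With the slide removed r was -0.15 and 0.08, and neither relation held (permutation, adjusted p = 0.562 and 0.730). Osm had an r of 0.05 (permutation p = 0.854; rho 0.37, p = 0.0545), and 0.37 when the probe near background was left out (permutation p = 0.0233, adjusted 0.0408).

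On day 28, Socs3 (r = 0.65, permutation p = 0.00648, adjusted 0.0227; rho 0.60, p = 0.0062), Osm (0.63, p = 0.012, adjusted 0.0280; rho 0.59, p = 0.00512), Osmr (0.51, p = 0.0223, adjusted 0.0446; rho 0.47, p = 0.0284) and Il6 (0.50, p = 0.0311, adjusted 0.0484; rho 0.46, p = 0.0454, adjusted 0.0636) were higher in mice with more Saa3. Of all genes, 1.33%, 1.46%, 3.16% and 3.24% had an r at least as high. Without the 2 farthest mice, replicates 3 and 5 at 162 µg of NRCWE-001, the r values were 0.59, 0.51, 0.42 and 0.39, and none of the 4 passed the threshold (permutation, adjusted p = 0.0518, 0.133, 0.158 and 0.180). Removing the slide gave r values of 0.73, 0.69, 0.62 and 0.85, all past it. Without the slides that stood apart (n = 24) they were 0.81, 0.65, 0.70 and 0.84, also past it by permutation. Stat3 (0.21), Il6ra (-0.16) and Il6st (-0.06) had adjusted permutation p-values of 0.434, 0.584 and 0.841. For Il6st r became -0.56 with the slide removed and -0.41 without the slides that stood apart, both past the threshold (permutation, adjusted p = 0.00422 and 0.0477). Those slides were singled out from the Il6st and Il6ra values after seeing the data. The value without them is therefore no independent test for Il6st.

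**Figure D4:**
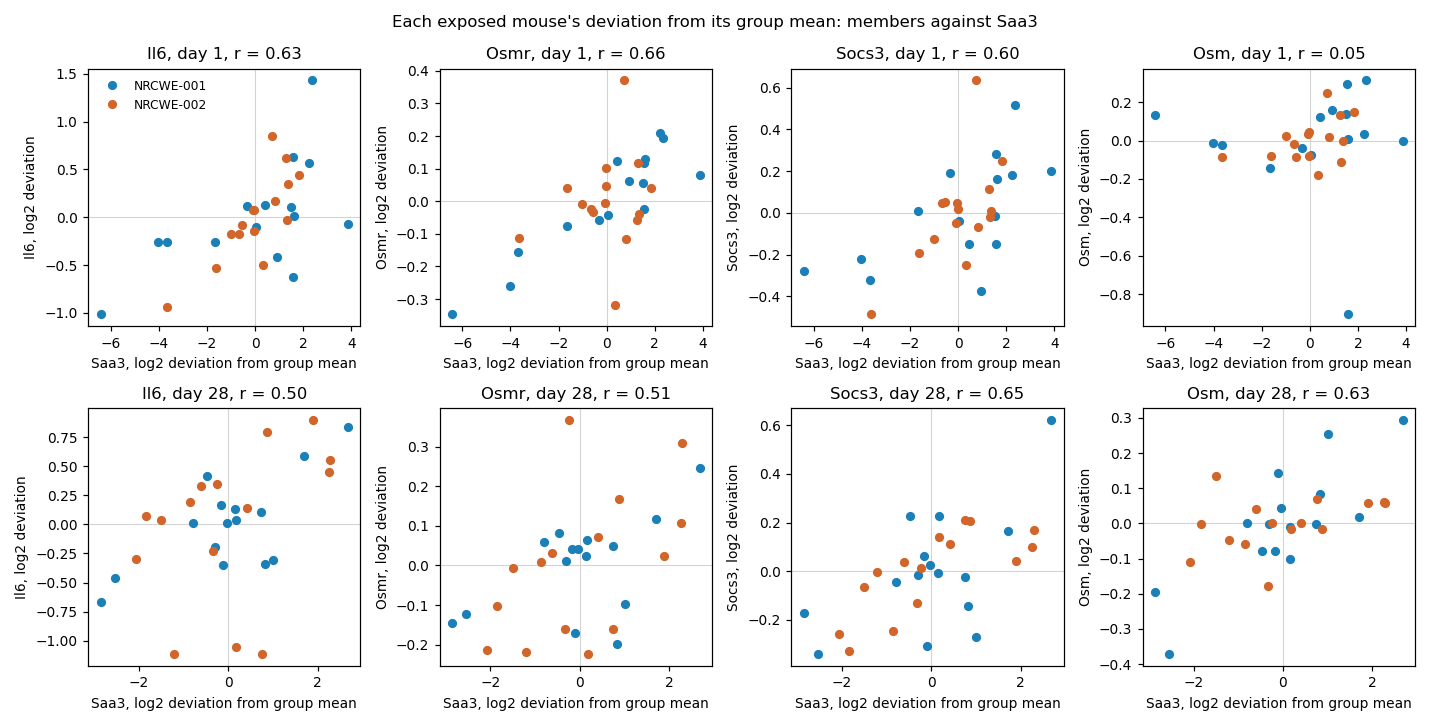
Deviation of Il6, Osmr, Socs3 and Osm from the group mean against the deviation of Saa3, in log2 units, with 1 point per exposed mouse (30 per day) and Pearson's r above each panel. Socs3 is higher with Saa3 on both days (0.60 and 0.65), and r for Osm is 0.63 on day 28 and 0.05 on day 1, where 1 mouse lies at -0.9.

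Some neutrophil markers were also higher at 162 µg on day 1. The mean log2 ratio over the 11 measured neutrophil markers ran from 1.26 to 1.70 in the vehicle mice, from 1.48 to 2.69 at 162 µg of NRCWE-001 and from 1.66 to 2.29 at 162 µg of NRCWE-002. Both exposed ranges overlapped that of the vehicle. Of the 11 markers, 3 were called higher for NRCWE-001 (Cxcr2, Csf3r and Il1r2) and 0 for NRCWE-002 in limma, beside 0.454% and 0.437% of all genes. For NRCWE-002, 7 were higher at an unadjusted p below 0.05, beside 5.2% of all genes, and that count is not given here for NRCWE-001. Of the markers, 9 were above background on every array and none was below it on all. On day 28 the ranges were 1.27 to 1.65 in the vehicle, 1.03 to 1.90 for NRCWE-001 and 1.12 to 1.77 for NRCWE-002. Of the 9 macrophage and monocyte markers, Siglecf, a marker of alveolar macrophages, was called lower at 162 µg on day 1, with log2 fold changes of -0.999 and -1.005. Of all genes, 0.624% and 0.59% were called there in either direction. The changes of the other markers in that list are not given here, so Siglecf alone does not describe it. The part of neutrophils, macrophages and monocytes in the Socs3, Il6 and Osmr values was not tested.

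Few other genes of the pathway were called on day 1. Of 14 other ligands and receptors of the family, 0 were called at 162 µg of either particle in limma, beside 0.624% and 0.59% of all genes, with 1 at an unadjusted p below 0.05 in each case, beside 7.32% and 9.35% of all genes, and medians of -0.08 and -0.04. Of 23 measured JAK-STAT genes and regulators (24 listed), 0 were called against the same shares of all genes, with 0 and 1 at an unadjusted p below 0.05 and medians of 0.02 and -0.0002. Among 19 measured genes known to be induced through STAT3 (20 listed), 0 were called for NRCWE-001 and 1 for NRCWE-002, Nfil3, a transcription factor. Nfil3 rose by 0.77 ± 0.19 (limma, adjusted p = 0.0323). With an unadjusted p below 0.05, 6 and 7 of the 19 were higher, beside 4.17% and 5.2% of all genes, and the medians of the list were 0.24 and 0.36.

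Most acute-phase genes were called higher on day 1. At 162 µg of NRCWE-001 there were 12 of 20 and at 162 µg of NRCWE-002 13 of 20, Saa3 among them, where 0.454% and 0.437% of all genes were called higher. After Saa3, the leading genes for NRCWE-001 were Saa1 (3.97 ± 0.68), Orm2 (3.06 ± 0.45) and Lcn2 (2.89 ± 0.63). For NRCWE-002 they were Saa1 (3.90 ± 0.68), Lcn2 (3.18 ± 0.63) and Timp1 (2.75 ± 0.50). On day 28 none of the 20 was called in limma at 162 µg of either particle, where 0.051% and 0.00567% of all genes were, and 3 and 1 had an unadjusted p below 0.05, beside 7.34% and 7.27% of all genes. The STAT3-induced list then had 1 call at 162 µg of NRCWE-001, Nfil3 again (1.07 ± 0.20, limma, adjusted p = 0.0191), and a median of 0.43, with 10 of 19 genes higher at an unadjusted p below 0.05, which 4.03% of all genes were. For NRCWE-002 it had 0 calls, 5 higher at an unadjusted p below 0.05, beside 3.01% of all genes, and a median of 0.23.

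Genes whose pattern over the 69 arrays was most like a member were named by Pearson's r, as a description over arrays that share slides and doses. The nearest to Socs3 were the chemokines Ccl2 (0.87), Ccl4 (0.85) and Ccl3 (0.84). Osmr was nearest to Ctps (0.81), Ccl7 (0.79) and Il6 (0.79), and Il6 to Dtl (0.85), Tyms-ps (0.85) and Ctps (0.84). Osm had no close neighbour, with Rgs16 (0.55), Irak4 (0.55) and Rgs1 (0.54) as the nearest. Il6ra was nearest to Prkag1 (0.84), Aldh2 (0.83) and Atg4b (0.83), and Il6st to Cops8 (0.90), Ankrd46 (0.89) and Psmc1 (0.89).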

How the data were processed

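Lung RNA (Cy5) of each mouse was hybridised with Universal Mouse Reference RNA (Cy3) on 2-colour Agilent arrays without dye swaps. The submitters' processing notes name Agilent Feature Extraction, version 11.0.1.1 per the file headers. The deposited log2 ratios of sample to reference, which the authors had normalized by LOWESS, were the main values. The deposited scanner intensity values, in both channels, gave the alternatives and the calls of spots above background. The correlation of the deposited ratios with ratios of the median signals was 0.994 to 0.999 per array, which gave their scale and direction. Of 41174 probes, 27479 matched a RefSeq symbol (GRCm38.p6, symbols only, since the arrays follow mm9). Probes were kept where 4 or more of the 69 arrays read them well above background in red, and a gene is the median over its probes (17639 genes). One limma 3.58.1 fit (R 4.3.3) with 14 group means gave 18 contrasts and 4 F-tests. Alternatives were other background corrections (normexp with offset 50, fitted without spots of local background more than 10 median absolute deviations off), normalizations, filters, probe summaries, blocks for slide or scan day, array weights and each array left out. The fit was tested on simulated data with independent normal noise and, for each gene, the same spread in every group. The simulated data held no slide effects, so that test does not cover slide effects or unequal spread. The number of arrays limits the precision. The members and lists were chosen with earlier results of these data known. Named genes were the members, Saa3, the 3 genes most like each member (those of Stat3 are not reported here) and up to 4 called genes with the largest change per list at 162 µg on day 1. Tests were 2-sided, except the F-tests. Replicates were numbered in accession order and the groups came from the labels.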

Additional observations from a re-analysis of the deposited data

Results flagged for a closer look

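Each member was screened for a mouse far from the rest of its group, in 98 groups of a member, and 8 were found, where chance gives about 1 in 20. On day 1, Osm in replicate 1 at 162 µg of NRCWE-001 was -0.91, with the nearest other mouse at 0.13, and the low value comes from the probe near background. The other 7 were on day 28 and on the 2 slides that stood apart. Il6st was 2.21 in the vehicle replicate 2, 1.94 in replicate 1 at 162 µg of NRCWE-001, 1.96 in replicate 1 at 18 µg of NRCWE-001 and 1.88 in replicate 2 at 54 µg of NRCWE-002, with the nearest other mice between 1.16 and 1.31. Osmr was -0.72 in replicate 1 at 18 µg and -0.63 in replicate 1 at 54 µg of NRCWE-001. Il6 was -2.83 in replicate 2 at 54 µg of NRCWE-002, with the nearest other mouse at -1.58. The slides were singled out from these Il6st and Il6ra values.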

How the results depend on the processing

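Of 7 measured members, 2 were called by the dose F-test for NRCWE-001 on day 1 and 1 at its 162 µg dose, and 0 in the other 20 contrasts and F-tests. At 162 µg of NRCWE-001 on day 1 the count was 3 with normexp, slide as a fixed or a random block, scan day as a block, array weights or without the 2 slides that stood apart, and 2 with processed signals or without background correction. At 162 µg of NRCWE-002 on day 1 it was 3 with array weights or without those slides, 2 with processed signals or scan day, and 1 with normexp, no background correction, the filter at 35 arrays, the mean over probes or slide as a random block. The share of all genes called at 162 µg on day 1 is not given here for normexp, no background correction, the filter at 35 arrays or the mean over probes. The F-test of NRCWE-002 on day 1 called 3 members with array weights, where 8.03% of all genes were called. It called 2 with processed signals (0.697% of all genes) or without those slides (3.53%). It called 1 with normexp (0.822%), no background correction (0.924%), the filter at 35 arrays (1.18%) or slide as a random block (3.03%). Slide as a random block called 1 member at 54 µg of NRCWE-002 on day 1, where the share of all genes called is not given here. It also called 1 by the F-test of NRCWE-001 on day 28, beside 3.37% of all genes. Array weights called 3 in that F-test, beside 9.31% of all genes. They also called 3 at 162 µg of NRCWE-001 on day 28, where the share of all genes called is not given here. The counts without a share can therefore not be read as particular to these members. In the F-test of NRCWE-001 on day 28, both settings thus called more of all genes than the main fit, at 0.686%. Leaving out 1 array at a time gave 0 to 3 members at 162 µg of NRCWE-001 and 0 to 2 at 162 µg of NRCWE-002 on day 1, and 0 to 3 and 0 to 1 in their F-tests. The share of all genes was not counted in those fits. Osmr kept its F-test call in 8 of 20 such fits and Socs3 in 18. Members related to Saa3 numbered 5 on day 1 and 4 on day 28. The day 1 count was 7 with the 35-array filter, 6 with normexp or without the 2 slides that stood apart, 4 with processed signals and 3 with the slide removed, and without the 2 farthest mice the counts were 2 and 0. On day 28 processed signals gave 2 and removing the slide or leaving out the 2 slides gave 5, and leaving out 1 mouse gave 3 to 6 and 1 to 4. No called member changed direction in any alternative. Calls over all genes at 162 µg on day 1, 110 and 104, became 725 and 346 with slide as a fixed block, 618 and 500 as a random block, 718 and 705 with scan day, 1106 and 1349 with array weights, 340 and 487 without the 2 slides that stood apart and 62 and 74 with processed signals. The 2 slides held only day 28 arrays, so leaving them out did not change the day 1 differences. At 162 µg of NRCWE-001 on day 1 these stayed at 1.16 for Il6 and 0.38 for Osmr. Their adjusted p-values in limma fell from 0.101 to 0.0239 and from 0.0639 to 0.0249. All arrays share 1 estimate of the spread in this fit, so day 28 arrays bear on day 1 calls. The cause of the other changes in the counts was not tested. The settings without the 2 slides, and the 35-array filter for Saa3, were chosen after seeing the data. No paired analysis was possible because replicate numbers follow accession order and pair no mice; the slide, which is no replicate number, was fitted as a block instead. Low signal over background limits Il6 and the weaker Osm probe.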
